A study of Mus musculus with 12 samples.

Results

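Arachidonic acid metabolism was followed through the transcripts of 10 mouse genes, Pla2g4a, Ptgs1, Ptgs2, Ptges, Tbxas1, Alox5, Alox5ap, Ltc4s, Alox15 and Hpgd. They were chosen by name, with earlier results of these data known. Each matched 1 gene ID of the 49585 counted in liver and of the 55401 counted in macrophages. Poly(A) RNA of C57BL/6 mice was sequenced in 12 libraries, 3 in each of 4 groups. One pair of groups was liver, untreated (labelled WT) or taken 2 h after lipopolysaccharide (LPS), the bacterial cell wall component that activates toll-like receptor signalling and serves as a model of acute liver injury in the series title. The other pair was macrophages from the peritoneal cavity, phagocytes that reside there. All of them were infected with a lentivirus for 72 h before 2 h of LPS. The lentivirus carried either a negative control short hairpin RNA (shNC) or one that targets Gm26917, a long non-coding RNA (shGm26917). Both macrophage groups therefore carry virus and LPS, and their comparison measures the hairpin, not the response to LPS. The sources used here give neither age, sex, dose and route nor the number of hairpins. Nothing in the labels says that replicates came from separate animals or cultures, so p-values measure the spread between these libraries, which may be technical.

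The pathway begins when cytosolic phospholipase A2 (Pla2g4a) frees arachidonic acid from membranes. The cyclooxygenases Ptgs1 and Ptgs2 turn it into prostaglandin H2, from which Ptges makes prostaglandin E2, a mediator of fever and vasodilation, and Tbxas1 makes thromboxane A2, which constricts vessels and aggregates platelets. In a competing branch, Alox5, helped by its membrane partner Alox5ap, makes leukotriene A4, which Ltc4s conjugates with glutathione to leukotriene C4. Alox15 oxygenates arachidonic acid and other fatty acids at a different carbon and is known as a marker of resident peritoneal macrophages in mice. Hpgd does not synthesise these mediators but inactivates prostaglandins. Ptgs2 is the textbook inducible cyclooxygenase and Ptgs1 the constitutive one.

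Promoter windows are printed for Ptgs2, Ptges and Ptgs1, because the first 2 of these genes rose in LPS liver and fell with the Gm26917 hairpin while Ptgs1 did the opposite in both. Each window runs from 250 bases before to 50 after the RefSeq start (GRCm38.p6), written 5′ to 3′ on the gene's own strand, and such windows were found for 8 of the 10 genes. The Ptgs2 window is chr1:150099781-150100080 (plus strand), that of Ptges chr2:30903248-30903547 (minus) and that of Ptgs1 chr2:36230176-36230475 (plus). Capitals mark matches on either strand to 6 motifs. The core of the cyclic AMP response element was searched as CGTCA and the E-box, bound by basic helix-loop-helix factors, as CACGTG. The motif of C/EBP factors was searched as TTNNGNAA and the TATA box of core promoters as TATAAA. For AP-1 factors the letters were TGANTCA, and NF-kB was searched by its consensus.
Ptgs2: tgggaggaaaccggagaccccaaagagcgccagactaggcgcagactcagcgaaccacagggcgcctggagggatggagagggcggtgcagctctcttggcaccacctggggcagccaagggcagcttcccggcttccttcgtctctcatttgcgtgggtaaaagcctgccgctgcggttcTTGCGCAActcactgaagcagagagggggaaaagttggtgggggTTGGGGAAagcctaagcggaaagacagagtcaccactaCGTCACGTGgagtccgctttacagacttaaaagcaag
Ptges: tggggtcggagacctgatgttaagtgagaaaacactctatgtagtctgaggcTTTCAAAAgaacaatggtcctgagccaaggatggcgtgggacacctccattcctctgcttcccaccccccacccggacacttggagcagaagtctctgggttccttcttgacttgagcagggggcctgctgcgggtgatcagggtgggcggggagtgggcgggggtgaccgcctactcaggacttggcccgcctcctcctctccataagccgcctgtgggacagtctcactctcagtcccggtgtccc
Ptgs1: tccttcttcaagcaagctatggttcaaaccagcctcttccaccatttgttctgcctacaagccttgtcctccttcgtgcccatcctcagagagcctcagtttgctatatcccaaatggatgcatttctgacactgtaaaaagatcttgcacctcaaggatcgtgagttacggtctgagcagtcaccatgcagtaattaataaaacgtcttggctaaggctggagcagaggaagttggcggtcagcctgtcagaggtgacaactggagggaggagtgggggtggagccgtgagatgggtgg
The Ptgs2 window held C/EBP matches beginning 69 and 25 bases before the start, and a CGTCA match 13 bases after the start base that shares its last letters with an E-box. The Ptges window held 1 C/EBP match, 198 bases before the start, and the Ptgs1 window held none of the 6 motifs. Of 32817 promoter windows, 40.7% held a C/EBP match, 20.8% CGTCA, 7.15% the E-box and 4.50% the NF-kB consensus, so a C/EBP match in particular is common. The matches describe letters in these windows, not sites that a factor uses.

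On GRCm38 (GENCODE M21) all 10 genes are annotated as protein coding. Pla2g4a lies at chr1:149829618-149961290 and Ptgs2 beside it at chr1:150100031-150108227. Ptges lies at chr2:30889471-30929863 and Ptgs1 at chr2:36230426-36252272. Tbxas1 (chr6:38875404-39084585) and Alox5 (chr6:116410077-116461178) share a chromosome, as do Ltc4s (chr11:50236461-50238616) and Alox15 (chr11:70344152-70352031). Alox5ap lies at chr5:149264767-149288153 and Hpgd at chr8:56294585-56321043. Values cover all exons of a gene. The sources used here do not say whether counting used strand, and an antisense transcript overlaps the exons of 4 members, by 26.4% for Ltc4s (Gm26542), 13.3% for Alox5ap, 3.81% for Ptgs1 and 1.58% for Tbxas1.

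Liver libraries held 17322770 to 20913964 counts each, and macrophage libraries 15605311 to 18062853. Hepatocyte markers summed to 69180 to 123003 CPM in liver and to at most 0.469 CPM in the macrophages. CPM are counts relative to the TMM-scaled library size. The macrophages held the macrophage markers Adgre1, Csf1r, Lyz2 and the peritoneal factor Gata6. Gata6 stood at 29.5 and 29.2 CPM in shNC and shGm26917 macrophages, and at 8.67 and 34.1 CPM in untreated and LPS liver. Its level therefore does not set the macrophages apart from liver here. The effect of the hairpin on Gm26917 itself was not analysed here, so the labels of the macrophage groups have no such check. Library shNC replicate 2 stood apart, with a correlation of log2 CPM of 0.943 and 0.942 to the other shNC libraries against 0.985 between those. The macrophage markers summed to 12805 CPM in it and to 19925 and 21639 CPM in the other shNC libraries, and macrophage results are therefore also given without it. Other lists were higher in it. B cell markers summed to 629 CPM against 299 and 199 CPM, and monocyte markers to 110 CPM against 54.3 and 41.0 CPM. Large peritoneal macrophage markers summed to 55747 CPM against 20583 and 17172 CPM. Most of that list was Saa3 (29642 ± 21399 CPM, mean and SD of the shNC libraries). The macrophage list was mostly Cd14 (8180 ± 4240 CPM) and Lyz2 (5350 ± 2097 CPM). In the same list Cd68 (813 ± 22.2 CPM) and Itgam (839 ± 53.5 CPM) varied little between the shNC libraries. In bulk RNA, fewer cells of a type and less RNA per cell cannot be told apart.

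In liver, 2 h of LPS raised Ptgs2 and Ptges and lowered Ptgs1. By the quasi-likelihood test of edgeR, adjusted over genes after Benjamini and Hochberg, 45.3% of the 13869 genes tested in liver changed at an adjusted p under 0.05, 23.3% higher and 22.1% lower. Of the 10 members, 7 had enough counts to be tested, 3 of these changed, and 3 had groups that did not overlap, against 57.8% of all genes tested. The share of members called is near the background, so the count is not a result about the pathway. Scaling by library totals instead of TMM split the calls over all genes as 1943 higher and 5305 lower instead of 3227 and 3060.

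Ptgs2 went from nearly absent to clearly counted. It had 0, 2 and 3 counts in the untreated livers and 142, 58 and 62 in the LPS livers, or 0, 0.0927 and 0.130 CPM against 8.90, 3.22 and 3.92 CPM. Every LPS library lay far above every untreated one, and LPS replicate 1 was the highest. The log2 fold change was 6.04 ± 0.71 (SE, n = 3 per group), a 65.7-fold difference (edgeR adjusted p = 0.000285). It ranged from 5.47 without LPS replicate 1 to 6.66 without untreated replicate 3. Only 0.945% of tested genes had a larger absolute change, while 63.1% had a mean level in the LPS livers at least as high as that of Ptgs2.

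Ptges, the synthase that works downstream of Ptgs2, followed at a lower level. Its counts were 2, 7 and 5 in untreated and 25, 36 and 26 in LPS livers, and its level rose from 0.211 ± 0.117 to 1.74 ± 0.229 CPM (SD, n = 3). The groups did not overlap. This was a log2 fold change of 3.01 ± 0.48, an 8.05-fold rise (edgeR adjusted p = 0.00134). Ptgs2 and Ptges passed the filter on low counts through the LPS libraries alone, so a difference was a condition of their being tested.

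Ptgs1 moved the other way. Counts were 189, 148 and 216 in untreated livers and 51, 73 and 59 after LPS, or 8.60, 6.86 and 9.38 against 3.20, 4.05 and 3.73 CPM. The lowest untreated library lay well above the highest LPS library. On the log2 scale the change was -1.18 ± 0.23, a 2.26-fold fall (edgeR adjusted p = 0.00389). Both called cyclooxygenases and Ptges kept their calls in all 6 fits that left out 1 library.

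Hpgd, the prostaglandin-inactivating dehydrogenase, was by far the most abundant member in liver. It had 67.4, 103 and 117 CPM in untreated livers and 42.0, 86.1 and 63.8 CPM in LPS livers. LPS replicate 2 lay above untreated replicate 1, so the groups overlapped. The log2 fold change of -0.58 (95% interval -1.26 to 0.10) did not pass the test (edgeR adjusted p = 0.144), but it was -0.997 with an edgeR adjusted p of 0.0178 when libraries were scaled by their totals, a setting in which 52.3% of genes were called and which moves the median of all genes from -0.06 to -0.49.

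The remaining members were scarce in liver. Pla2g4a had 18 to 30 counts in each of the 6 libraries (log2 fold change 0.14, 95% interval -0.64 to 0.91, edgeR adjusted p = 0.765). Tbxas1 had 58, 58 and 21 counts in untreated and 29, 34 and 29 in LPS livers, with untreated replicate 3 the lowest of all (log2 fold change -0.17, edgeR adjusted p = 0.769). Alox5ap had 19, 21 and 32 counts before and 17, 52 and 25 after LPS (log2 fold change 0.78 ± 0.44, edgeR adjusted p = 0.179). These intervals leave room for changes of either sign.

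Alox5, Ltc4s and Alox15 had too few counts in liver to be tested. Alox5 had 1, 0 and 1 counts in untreated livers and 5, 6 and 4 after LPS, a ratio of 10.03 after scaling (exact 95% interval 2.33 to 90.4, counting error only). The groups did not overlap, and a fit with no low-count filter, which called 27.4% of 24918 genes, gave Alox5 a log2 fold change of 3.07 (edgeR adjusted p = 0.0413). Ltc4s had 1, 8 and 7 counts before and 3, 2 and 1 after LPS, a control to LPS ratio of 1.99 (0.741 to 6.22), and the groups overlapped. Alox15 had 0 counts in all untreated livers, which allows up to 3 counts over the group or 0.0451 CPM, and 1 count in the LPS livers.

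Transcripts of other cell types moved in the same livers. The 12 neutrophil markers summed to 4.005 to 9.29 CPM in untreated and 227 to 320 CPM in LPS livers, with 9 of 10 tested higher and none lower. Platelet markers summed to 14.9 to 16.2 CPM and then to 17.7 to 24.2 CPM, with 3 of 5 tested higher (Pf4 1.99, Ppbp 3.32 and Itga2b 1.27 on the log2 scale) and Clec1b lower (-1.03). Macrophage markers summed to 121 to 152 and then 337 to 555 CPM, mostly Cd14 after LPS (5.84 CPM before and 355 CPM after). Of 8 tested, Cd14 (5.92), Itgam (2.08) and Fcgr1 (1.46) were higher and none was lower. Adgre1 (-0.51), Csf1r (-0.87), Mertk (-0.77), Cd68 (0.45) and Lyz2 (0.06) were not called. Monocyte markers summed to 12.5 to 19.7 and then 47.0 to 58.9 CPM. Of 7 tested monocyte markers, 4 were higher and Ccr2 was lower (-1.26). Kupffer cell markers, those of the resident liver macrophages, summed to 401 to 460 CPM and then 172 to 440 CPM. Of 10 tested, Marco was higher (2.54) and Slc40a1 (-2.83) and Cd163 (-1.89) were lower. Sinusoidal endothelial markers summed to 173 to 268 and then 168 to 194 CPM, with 5 of 9 lower, Kdr (-2.89) and Gpr182 (-2.77) the most, and Lyve1 and Stab2 higher. The mast cell and basophil list went from 9.08 to 17.7 CPM up to 60.5 to 73.5 CPM, mostly Hdc, while its tryptases Tpsb2 and Tpsab1 were at 0. Of its 3 tested members, Hdc was higher (2.86), Gata2 was lower (-2.11) and Kit was not called. The part of these cells in the rise of Ptgs2, Ptges and Alox5 counts and in the fall of Ptgs1 was not tested.

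**Figure D1:**
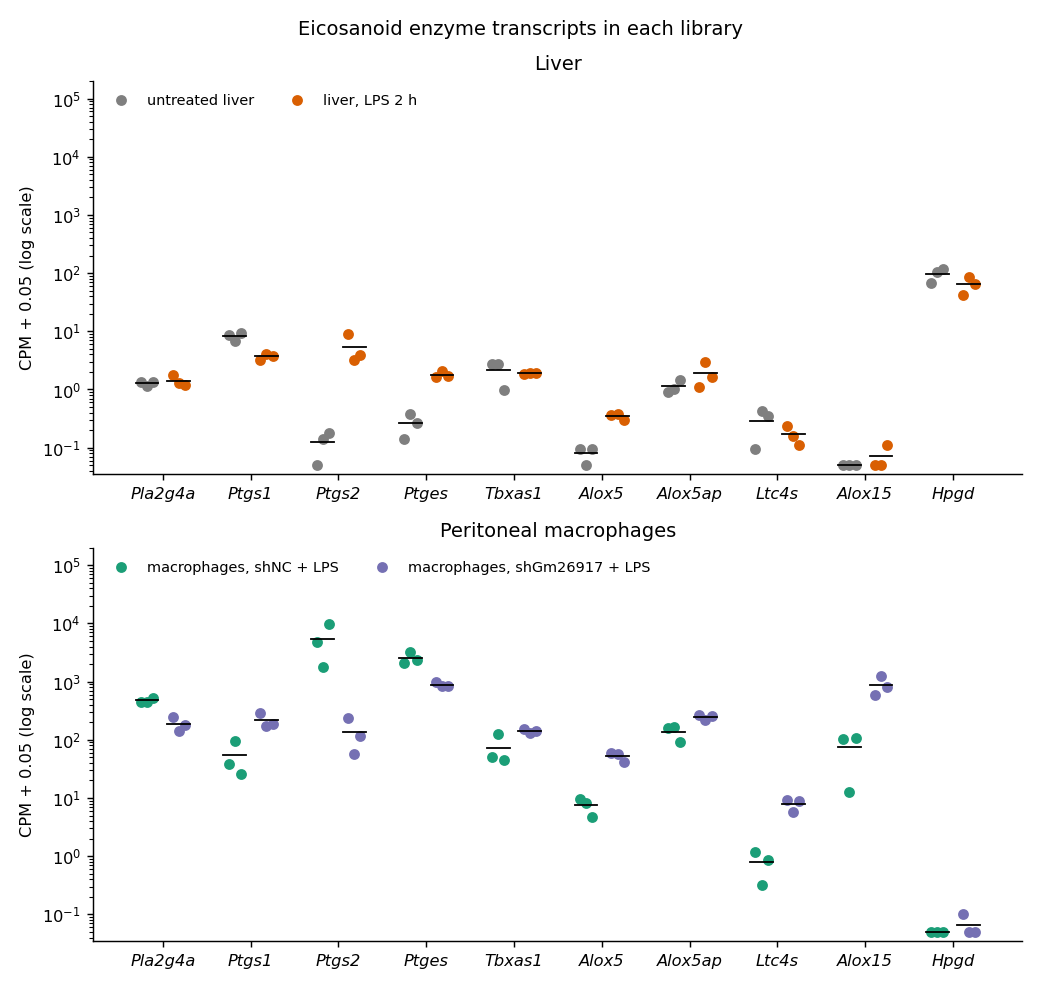
Level of each member in each library, as CPM with 0.05 added on a log axis, in liver (top) and peritoneal macrophages (bottom); points are libraries, bars are means of 3, and points at 0.05 are counts of 0. In liver Ptgs2 climbs from at most 0.130 to between 3.22 and 8.90 CPM while Hpgd stays the most abundant member, and in macrophages Ptgs2 drops from between 1757 and 9850 to between 58.0 and 240.3 CPM.

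In LPS macrophages, the hairpin against Gm26917 went with lower transcripts of the Pla2g4a, Ptgs2 and Ptges chain and higher transcripts of Ptgs1, Alox5, Alox5ap, Ltc4s and Alox15. Of 12876 genes tested, 23.7% changed by the same edgeR test, 12.6% higher and 11.1% lower. Of the 10 members, 9 were tested and 8 changed, 5 higher and 3 lower. All 9 tested members had groups that did not overlap, against 45.9% of all genes tested. The members were chosen with earlier results of these data known, so these counts are not a test of the pathway. Ltc4s would not have passed the low-count filter on its shNC libraries alone. Scaling by library totals split the calls over all genes as 3135 higher and 794 lower instead of 1618 and 1431, and moved the all-gene median (log2 fold change) from -0.00073 to 0.29.

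Ptgs2 showed the largest absolute log2 difference of the 9 tested members. It had 71206, 26003 and 145898 counts in the shNC libraries and 4719, 1060 and 2016 in the shGm26917 libraries, or 4770, 1757 and 9850 CPM against 240.3, 58.0 and 114 CPM. It took 0.157% to 0.849% of all counts of a shNC library, where it ranked 9, 19 and 57 among all genes by counts, and it ranked 584, 1455 and 3169 in the shGm26917 libraries. The shNC libraries were widely spread, and still the lowest lay far above the highest shGm26917 library. The log2 fold change was -5.31 ± 0.85, a 39.7-fold fall (edgeR adjusted p = 0.00901), and 0.474% of tested genes had a larger absolute change. It was -4.58 without shNC replicate 3 and -5.98 without shGm26917 replicate 1, and without shGm26917 replicate 3 the call was narrowly lost (-5.19, edgeR adjusted p = 0.0515).

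The enzymes on either side of Ptgs2 fell less. Ptges had 2109, 3186 and 2334 CPM in shNC and 976, 841 and 831 CPM in shGm26917 macrophages, a log2 fold change of -1.53 ± 0.21 or a 2.88-fold fall (edgeR adjusted p = 0.00634). Pla2g4a, which supplies the arachidonic acid, had 453, 455 and 515 CPM against 243, 139 and 176 CPM, a log2 fold change of -1.35 ± 0.22 or a 2.55-fold fall (edgeR adjusted p = 0.00924). In both genes the shGm26917 libraries all lay below the shNC libraries. Ptges kept its call whichever library was left out, and Pla2g4a lost it without shGm26917 replicate 3 (-1.31, edgeR adjusted p = 0.0514).

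Ptgs1 rose. It had 38.1, 97.2 and 25.9 CPM in shNC and 293, 170.3 and 183 CPM in shGm26917 macrophages, a log2 fold change of 2.00 ± 0.51 or a 4.01-fold rise (edgeR adjusted p = 0.0333). The highest shNC value belonged to replicate 2, the library that stood apart, and without it the log2 fold change was 2.74. The call was lost when any 1 of the other 5 libraries was left out (edgeR adjusted p = 0.0738 to 0.101).

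Tbxas1, the thromboxane synthase, had 50.7, 124 and 44.4 CPM in shNC and 153, 132 and 144 CPM in shGm26917 macrophages. The groups did not overlap, but shNC replicate 2 came close to the lowest shGm26917 library. Its log2 fold change of 0.97 ± 0.39 was not called (95% interval 0.04 to 1.89, edgeR adjusted p = 0.116). Without shNC replicate 2 it was 1.57 (edgeR adjusted p = 0.000159), and with library totals, which called 30.5% of genes, 1.26 (edgeR adjusted p = 0.0461).

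Alox5, Alox5ap, Ltc4s and Alox15 were called higher in shGm26917 macrophages, while Alox12, a lipoxygenase outside the 10 members, was called lower (-2.88). Alox5, which makes leukotriene A4, had 9.51, 8.04 and 4.73 CPM in shNC and 58.2, 57.7 and 40.8 CPM in shGm26917 macrophages. The log2 fold change was 2.81 ± 0.29, a 7.03-fold rise (edgeR adjusted p = 0.00334). Alox5ap, the protein that presents arachidonic acid to Alox5, had 157, 163 and 92.4 CPM against 263, 218 and 260 CPM (log2 fold change 0.85 ± 0.23, 1.80-fold, edgeR adjusted p = 0.0411). It was called with shNC replicate 2 left out but lost its call when any other single library was (edgeR adjusted p = 0.0531 to 0.124).

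Ltc4s, the leukotriene C4 synthase, had 17, 4 and 12 counts in shNC and 178, 104 and 155 in shGm26917 libraries. Its log2 fold change was 3.39 ± 0.47, a 10.5-fold rise (edgeR adjusted p = 0.00627). The antisense transcript Gm26542, whose exons cover part of Ltc4s, had 1 to 30 counts in these libraries. Alox5 and Ltc4s kept their calls whichever library was left out.

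Alox15 stood well above Alox5 in both groups, per length, and rose further. It had 104, 12.8 and 109 CPM in shNC and 588, 1240 and 824 CPM in shGm26917 macrophages, and shNC replicate 2 was by far the lowest. That was a log2 fold change of 3.55 ± 0.78, an 11.7-fold rise (edgeR adjusted p = 0.0218). Without shNC replicate 2 the log2 fold change was 3.03 and stayed called (edgeR adjusted p = 0.000393). The call was lost when any 1 of the other 5 libraries was left out (edgeR adjusted p = 0.0504 to 0.0763). Hpgd had 0 counts in all shNC libraries, which allows up to 3 counts over the group or 0.0674 CPM, and 1 count in the shGm26917 libraries.

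Without shNC replicate 2, 39.6% of genes were called in macrophages and all 9 tested members were, 6 higher and 3 lower. Leaving out shNC replicate 1 or 3 gave 16.0% or 12.6% of genes and 5 members each time. Leaving out shGm26917 replicate 1, 2 or 3 gave 10.1%, 6.35% or 7.38% of genes and 5, 5 or 3 members. Ptges, Alox5 and Ltc4s were called in each of these 6 fits, and the log2 fold changes of all 9 tested members kept their signs.

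**Figure D2:**
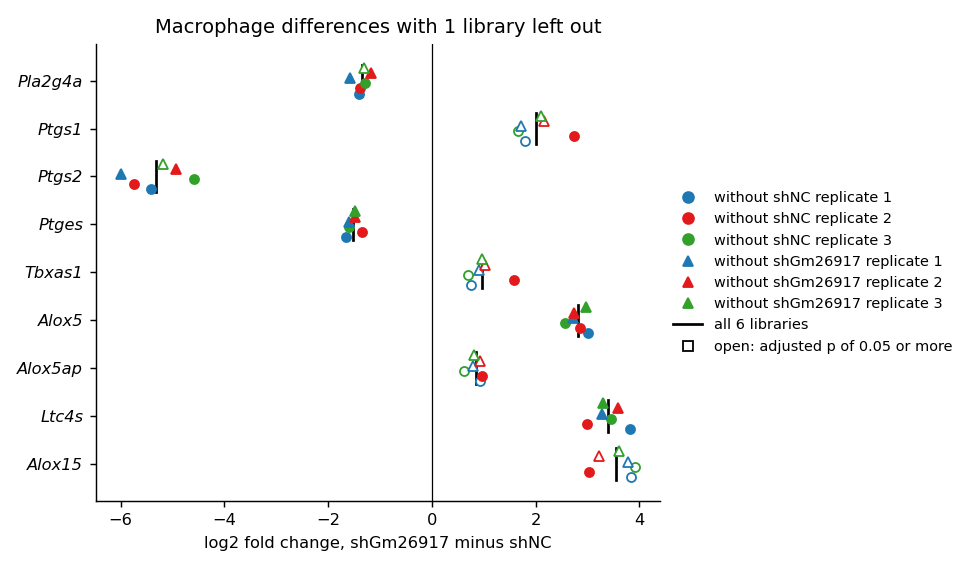
Log2 fold change (shGm26917 minus shNC) of the 9 tested members in LPS macrophages with all 6 libraries (black line) and with 1 library left out (symbols, open where the adjusted p was 0.05 or more). Signs hold throughout; the filled red circles, without shNC replicate 2, include Tbxas1 at 1.57 and Ptgs1 at 2.74.

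Marker transcripts of other cells were also read in the macrophage libraries. Eosinophils are known to express Alox15, and their markers Epx, Prg2 and Ear1 were at 0 in all 6 libraries, with the 6-gene list at 0.743 to 7.43 CPM in shNC and 1.87 to 3.18 CPM in shGm26917. Mast cells are known for Ltc4s and Alox5. Their list summed to 296 to 840 CPM in shNC and 36.6 to 101 CPM in shGm26917. Nearly all of it was Hdc (568 ± 305 against 54.0 ± 36.2 CPM), Mcpt8 was at 0, and Cpa3 stood at 1.58 and 0.891 CPM. The tryptases were counted, Tpsb2 at 12.7 ± 15.6 and 3.04 ± 0.521 CPM and Tpsab1 at 2.86 and 0.657 CPM. Kit stood at 3.06 and 0.789 CPM. Of 7 tested members of this list, Hdc was lower (-3.39) and no other was called. The platelet list, mostly Pf4, summed to 2887 to 3769 and 2164 to 3767 CPM, with Gp1bb at 0.

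The neutrophil list summed to 788 to 1302 CPM in shNC and 660 to 794 CPM in shGm26917, with Retnlg, Ly6g and Ngp at 0. Of 6 tested, Mmp8 was higher (1.63) and Mmp9 (-1.64) and Camp (-2.39) were lower. Most of the sum was Mmp9 (585 against 188 CPM) and Csf3r (273 against 313 CPM). The stellate, fibroblast and mesothelial list summed to 22.2 to 27.2 and 3.72 to 5.10 CPM. None of its 3 tested genes, Pdgfrb (-3.02), Dcn (-2.83) and Col1a1 (1.32), was called. The monocyte list summed to 41.0 to 110 and 34.1 to 38.4 CPM. Of 7 tested monocyte markers, Ly6c2 was lower (-3.57) and none was higher. The B cell list summed to 199 to 629 CPM in shNC and 121 to 296 CPM in shGm26917, with none of 6 called. Of 8 macrophage markers, Csf1r, Cd68 and Lyz2 were higher in shGm26917 and Cd14 was lower. Large peritoneal macrophage markers summed to 17172 to 55747 CPM in shNC and 7864 to 12491 CPM in shGm26917, mostly Saa3 (29642 ± 21399 against 8193 ± 2467 CPM), while Gata6 stood at 29.5 and 29.2 CPM, and none of the 8 was called. The part of these differences in the members' values was not tested.

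**Figure D3:**
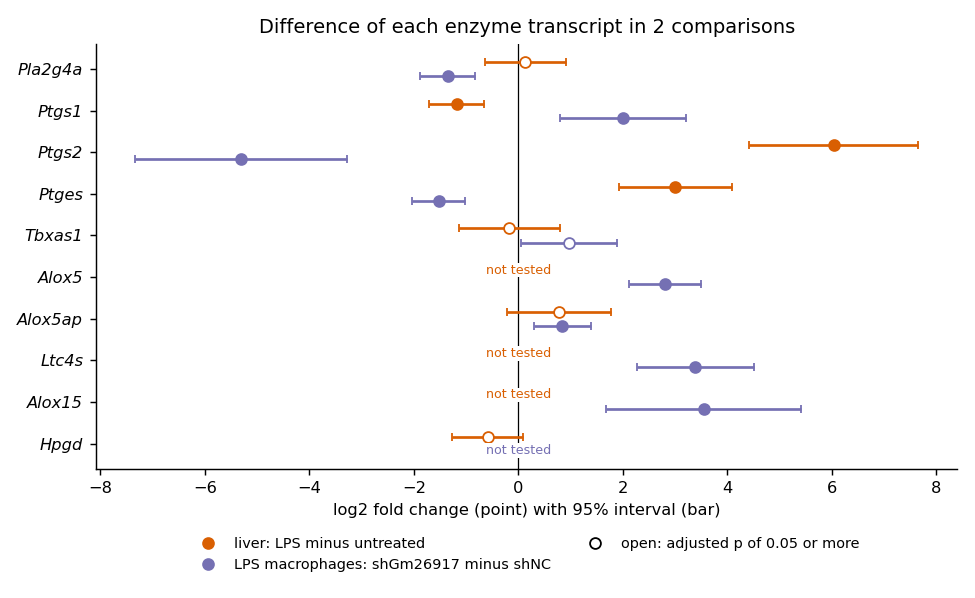
Log2 fold change of each member with its 95% interval for LPS against untreated liver (orange) and shGm26917 against shNC in LPS macrophages (purple); filled points have an adjusted p under 0.05. Ptgs2 stands at 6.04 and -5.31, Ptges at 3.01 and -1.53, and Ptgs1 at -1.18 and 2.00.

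Both cyclooxygenases make prostaglandin H2, so their balance was read within each library as the share of Ptgs2 among Ptgs1 plus Ptgs2 counts per kilobase of exon, a measure that does not depend on library scaling. The share was 0%, 1.13% and 1.16% in untreated livers and 70.2%, 40.3% and 47.1% in LPS livers, a difference of 51.8 percentage points. It was 99.1%, 93.9% and 99.7% in shNC and 41.0%, 22.4% and 34.6% in shGm26917 macrophages, a difference of -64.9 percentage points. Neither pair of groups overlapped. A 2-sided exact permutation test gave p = 0.10 in each tissue, the smallest value that 3 against 3 libraries allow. With 0 Ptgs2 counts among 189, untreated replicate 1 had a raw share with an exact 95% upper bound of 1.93%, and LPS replicate 1, with 142 of 193 counts, had a raw share of 73.6% (66.8% to 79.6%), both covering counting error only.

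**Figure D4:**
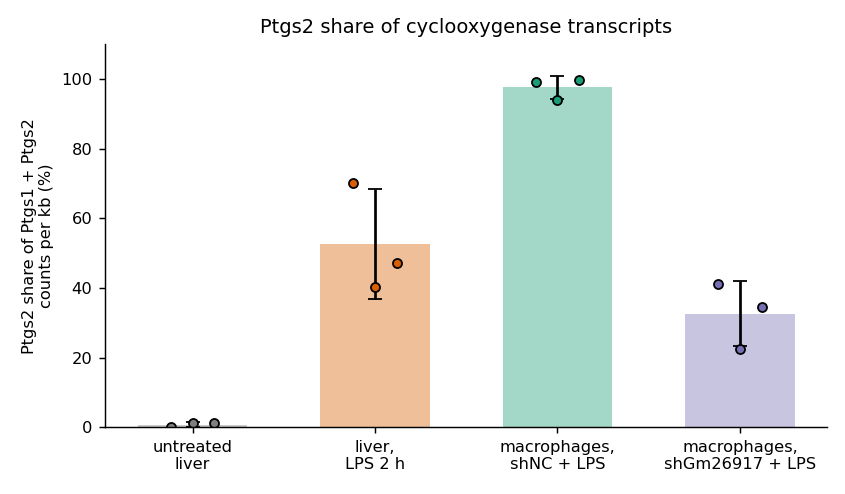
Share of Ptgs2 in the length-adjusted counts of both cyclooxygenases, in percent, for each library (points) with the mean (bar) and SD (line) of 3 libraries. The share is 0.766% ± 0.663 in untreated liver, 52.5% ± 15.7 in LPS liver, 97.5% ± 3.19 in shNC macrophages and 32.7% ± 9.45 in shGm26917 macrophages.

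The order of the members' levels was compared per length, as CPM per kilobase of exon. In untreated liver Hpgd led at 56.9 ± 15.2, followed by Ptgs1 at 2.13 ± 0.332 and Alox5ap at 0.758 ± 0.195. These 3 did not overlap with their neighbours in the order. Ptgs2, at 0.0162 ± 0.0146, was eighth, overlapping Ptges above and Alox5 below. In LPS liver Hpgd still led at 38.0 ± 13.1, but Alox5ap (1.30 ± 0.660), Ptgs2 (1.17 ± 0.677) and Ptgs1 (0.942 ± 0.111) formed an overlapping middle.

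In shNC macrophages Ptgs2 (1192 ± 893 CPM per kilobase) and Ptges (647 ± 145) led with overlapping ranges, above Alox5ap (96.7 ± 27.5) and Pla2g4a (74.2 ± 5.50), whose ranges overlapped each other. Alox15 (30.7 ± 22.1), Ptgs1 (13.8 ± 9.83) and Tbxas1 (8.04 ± 4.88) overlapped in sequence, and Alox5 (1.81 ± 0.597) and Ltc4s (0.730 ± 0.433) came last but for Hpgd. In shGm26917 macrophages Alox15 (360.1 ± 134) and Ptges (225 ± 20.6) led with overlapping ranges, followed by Alox5ap (174 ± 17.5). Ptgs1 (55.5 ± 17.3), Ptgs2 (30.0 ± 20.4) and Pla2g4a (29.1 ± 8.23) overlapped in sequence. The 10 members together took 0.518% to 1.12% of all counts of a shNC library, 0.286% to 0.321% of a shGm26917 library and 0.00535% to 0.0150% of a liver library.

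Genes whose profile over the 6 libraries of a tissue was nearest to that of Ptgs2 were found by the root mean square difference of centred log2 CPM. In macrophages these were Csf2, the granulocyte-macrophage growth factor (0.17), Loxl2, a lysyl oxidase (0.45), and Cxcl1, a neutrophil chemokine (0.45), at mean levels of 123 against 2.86, 104 against 2.48 and 2649 against 79.0 CPM in shNC and shGm26917. In liver they were the chemokine Cxcl5 (0.25), the predicted gene Gm42858 (0.29) and the inflammatory caspase Casp4 (0.30). Nearest to Hpgd in liver were Cdc45 (0.10), Tcf7 (0.10) and Abcb10 (0.11).

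The wider pathway was read from 6 lists holding 64 further genes. The lists were chosen with earlier results of these data known, so counts over them are not a result about the pathway. In liver 38 were tested, 12 were higher and 8 lower, beside 45.3% of all genes called, 23.3% higher and 22.1% lower. The median log2 fold change of the 38 was -0.08 against -0.06 for all genes tested. Prostanoid receptors moved in both directions. Ptgir, the prostacyclin receptor, had 6, 1 and 2 counts before and 54, 18 and 18 after LPS (log2 fold change 3.70 ± 0.74, edgeR adjusted p = 0.00421), and stood at 2.94 without LPS replicate 1 and 4.63 without untreated replicate 1. Tbxa2r, the thromboxane receptor, had 24, 17 and 24 counts before and 0, 1 and 0 after LPS, a control to LPS ratio of 48.6 (exact 95% interval 8.42 to 1949, counting error only, edgeR adjusted p = 0.000915). Ptgir passed the low-count filter through the LPS libraries alone and Tbxa2r through the untreated ones alone, so for both a difference was a condition of being tested. Ptger4, a prostaglandin E2 receptor, was higher (1.83, edgeR adjusted p = 0.0205) but lost its call without LPS replicate 1 or untreated replicate 2, at 1.18 in the first case.

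Of 5 tested leukotriene and lipoxin receptors, 2 were higher and 2 lower in LPS liver, beside 23.3% and 22.1% of all genes tested. Fpr2, the formyl peptide and lipoxin receptor of phagocytes, rose from 1.08 ± 0.515 to 23.8 ± 5.38 CPM (log2 fold change 4.47, edgeR adjusted p = 2.8e-05). Gpr17 had 39, 34 and 26 counts before and 0, 1 and 0 after LPS, a control to LPS ratio of 74.0 (12.98 to 2953, edgeR adjusted p = 0.000422). Cysltr1, a receptor for cysteinyl leukotrienes, was lower (-1.93, edgeR adjusted p = 0.0309), and Ltb4r1, a leukotriene B4 receptor, was higher (1.18, edgeR adjusted p = 0.0409). Gpr17 and Cysltr1 (21, 12 and 20 counts before, 3, 1 and 6 after LPS) passed the low-count filter through the untreated libraries alone, and Ltb4r1, like Ptger4 and Alox12, would not have passed on its untreated libraries alone. Without LPS replicate 2, which held the only count, Gpr17 and Tbxa2r were at 0 in the LPS group and still called lower. Cysltr1 lost its call in 4 of the 6 fits with a library left out and Ltb4r1 in all 6.

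The list of phospholipases and lipases had 7 tested genes, among them Plaa, a phospholipase-activating protein and not itself a lipase. Of these, Pla2g16 (1.65) and Pla2g12b (0.95) were higher and the lysosomal Pla2g15 (-2.11) was lower in LPS liver. Of 7 other prostanoid synthases 3 were higher, Ptges3 (1.19), Ptges2 (0.81) and the aldose reductase Akr1b3 (0.73), and none was lower. Over all genes tested in liver, 23.3% were higher and 22.1% lower. Of 5 tested genes listed with the other lipoxygenases and leukotriene enzymes, Alox12 (1.502) and the glutathione peroxidase Gpx4 (1.02), itself neither, were higher. Lta4h, which makes leukotriene B4, was lower (-0.68). Of 10 genes of export, uptake and breakdown, Abcc1, which exports leukotriene C4, was higher (2.69) and the reductases Zadh2 (-0.84) and Ptgr2 (-0.66) and the leukotriene hydroxylase Cyp4f14 (-0.97) were lower, the last with overlapping groups. The edgeR adjusted p of these genes was at most 0.0461. Pla2g16, Pla2g15, Ptges3, Abcc1 and Zadh2 held their calls in each fit with a library left out and each other setting tried. Pla2g12b and Ptgr2 lost their calls without LPS replicate 2 or 3, Akr1b3, Alox12 and Lta4h in 4 of the 6 fits with a library left out, and Cyp4f14 in 5. With library totals Pla2g12b, Ptges2, Akr1b3, Alox12, Gpx4, Ptger4 and Ltb4r1 were no longer called.

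In macrophages 32 of the 64 genes were tested, 7 were higher and 3 lower, beside 23.7% of all genes called, with a median log2 fold change of 0.38 against -0.00073 for all genes tested. Without shNC replicate 2 the counts were 13 and 7, and without shGm26917 replicate 2 they were 2 and 0. Fam213b, a prostaglandin F synthase, rose from 4.29 ± 0.911 to 21.5 ± 4.87 CPM (log2 fold change 2.33, edgeR adjusted p = 0.00334), and Gpx4 from 71.7 ± 12.5 to 150 ± 14.4 CPM (1.06, edgeR adjusted p = 0.00753). Both kept their calls whichever library was left out. The prostacyclin synthase Ptgis (1.46), the lysosomal phospholipase Pla2g15 (1.53), Lta4h (0.66), the dipeptidase Dpep3 (3.32) and the carbonyl reductase Cbr1 (0.64) were also higher. Dpep3 had 1, 2 and 1 counts in shNC and 11, 25 and 17 in shGm26917 libraries and passed the low-count filter through the latter alone, so a difference was a condition of its being tested.

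The genes lower in shGm26917 macrophages were Alox12, the platelet-type lipoxygenase (-2.88), Ptger2, a prostaglandin E2 receptor (-1.39), and Fpr2 (-0.86). Alox12 had 171, 83 and 196 counts in shNC and 16, 21 and 38 in shGm26917 libraries, opposite in direction to Alox15. The edgeR adjusted p of Alox12 was 0.00953 and rose to 0.0532 without shGm26917 replicate 2. Pla2g15, Cbr1 and Fpr2 were called in 1 of the 6 fits with a library left out, that without shNC replicate 2. Fpr2 also lost its call with library totals (-0.57, edgeR adjusted p = 0.0999). Lta4h was called in 2 of these fits, Ptgis and Ptger2 in 3 and Dpep3 in 4. Of the 10 genes called in macrophages, 8 lost the call in at least 1 fit with a library left out, and of the 20 called in liver 9 did.

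**Figure D5:**
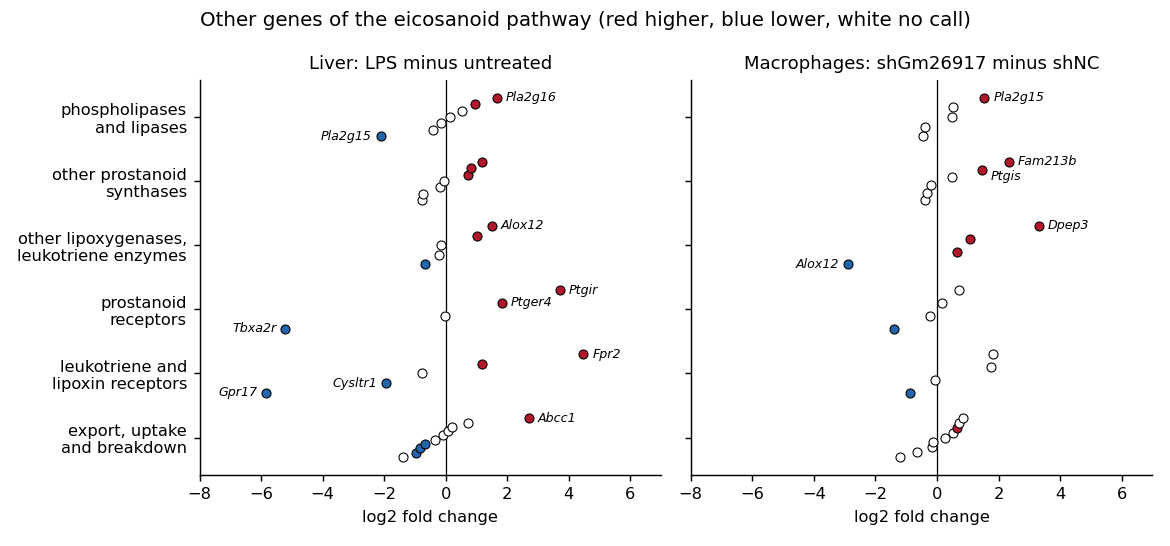
Log2 fold change of each tested gene of 6 lists of the wider eicosanoid pathway, in liver (left) and macrophages (right), red where called higher, blue where called lower and white where not called. The extremes in liver are the receptors Fpr2 at 4.47 and Gpr17 at -5.82, the latter resting on 1 count in the LPS livers.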

How the data were processed

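The deposited values were raw counts of reads per Ensembl gene ID, 1 table per library, per the file headers, and were not normalized. Per the submitters' processing notes, STAR, featureCounts 1.6.3 and mm10 were used. The sources used here do not give the annotation release, strand setting or treatment of multi-mapping reads. Liver files held 49585 IDs, macrophage files held 55401, and both held 49022 in common, so each tissue was analysed alone. The macrophage headers carry the word combined, and what was combined is not given. Symbols matched 49326 and 55141 IDs, and 1 symbol of the lists that matched 2 IDs was left out. No line was without a gene ID.

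Each tissue was fitted in edgeR 4.0.16 (R 4.3.3) with group as the sole factor, filterByExpr, TMM scaling and the 2-sided quasi-likelihood F test, with Benjamini-Hochberg adjustment over all genes tested in that tissue and a threshold of 0.05. SE was taken as the size of the log2 fold change over the root of F. Levels are CPM on TMM-scaled sizes, and levels per kilobase use summed exon length (GENCODE M21). With 15605311 to 20913964 counts per library, genes with a few counts have wide intervals. Alternatives were DESeq2 1.42.0 (Wald test and size factors), library totals, other filters, a replicate block and leaving out each library. Same-numbered libraries did not deviate together in every pair (r = 0.12, 0.05 and -0.08 in liver, -0.04, 0.24 and 0.18 in macrophages), so numbers were not taken to pair libraries. The members, pathway lists and marker lists were chosen with earlier results of these data known. Named beside the members are, from each pathway list, up to 3 genes higher and 3 lower with the largest change among those called, and the 3 genes nearest in profile to Ptgs2 and Hpgd. Protein sequences were not used here.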

Additional observations from a re-analysis of the deposited data

How the results depend on the processing

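In liver the count of members changed stayed at 3 in the fits with DESeq2 size factors, a 1 CPM filter, DESeq2's Wald test, the replicate block and each library left out. It was 4 with library totals, where 2 members were lower (Ptgs1 and Hpgd), and 4 with no filter, where Alox5 entered. Library totals gave 1943 genes higher and 5305 lower, and 5 pathway genes higher. With 1 library left out, 4 to 7 pathway genes were lower in liver. In macrophages library totals gave 3135 genes higher and 794 lower. No filter and DESeq2 each gave 5 pathway genes lower. With 1 macrophage library left out, 839 to 5236 genes changed (479 to 2715 higher, 360 to 2521 lower), 3 to 9 members changed (2 to 6 higher, 1 to 3 lower), and 2 to 13 pathway genes were higher and 0 to 7 lower. The cause of these shifts was not tested. Leaving out a library also leaves 2 libraries in its group.

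Signs that turned were those of genes not called. Pla2g4a in liver stood at -0.29 with library totals and ranged from -0.061 (without LPS replicate 1) to 0.26 with 1 library left out. Tbxas1 in liver ranged from -0.53 to 0.034 with 1 library left out, positive without untreated replicate 1 (0.034) and without untreated replicate 2 (0.031).

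With the replicate number as a block, 5754 genes changed in liver with 3 members among them, and 2594 in macrophages with 7 members. Alox5ap in macrophages lost its call under the block (0.88, edgeR adjusted p = 0.0547), as did Ltb4r1 in liver (1.16, edgeR adjusted p = 0.0855), and no other call on a member or named pathway gene changed. The difference in the Ptgs2 share of cyclooxygenase transcripts ranged from 42.9 to 57.9 percentage points in liver and from -69.0 to -59.7 in macrophages with 1 library left out. Depth limits Alox5, Ltc4s and Alox15 in liver and Hpgd in macrophages.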
